A study of Mus musculus with 40 samples.

Results

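Zscan4d, Zscan4e, Zscan4f, Usp17l5, Pramel7 and Arg2 are genes associated with the two-cell stage of the mouse embryo, and here their RNA was followed in fully grown oocytes that lacked 1 or both of a pair of histone methyltransferases. The 6 genes were chosen because earlier results on these same libraries showed them higher in mutant oocytes, so their RNA values are given as a description and without a test. A transcript locus was taken for a gene when the deposited table named that gene as overlapping it on the same strand, and each of the 6 genes had 1 such locus. The 6 loci came from 38540 loci in the table, of which 15023 carried a gene name on the same strand, for 14062 gene symbols.

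The oocytes were at the germinal vesicle stage, before meiotic maturation, and came from mice aged 22 to 25 days. Between 100 and 200 oocytes were pooled per sample. G9a cKO oocytes carry a conditional deletion of G9a, and G9a-Glp cDKO oocytes (cDKO) carry conditional deletions of both G9a and Glp. The control oocytes are labelled only as control, and the alleles they carry and the driver of the deletion are not given in the sources used here. RNA was sequenced in 3 controls and 3 G9a cKO libraries with the title prefix GKAO, and in 3 controls and 2 cDKO libraries with the prefix GKAQ. Each mutant was compared with the controls of its own prefix, so no control library is shared between the RNA comparisons. H3K9me2, the dimethylated form of lysine 9 on histone H3, was measured in 2 libraries each of control, G9a cKO and cDKO. The labels do not state that libraries of a group came from separate mice, so p-values measure a spread between libraries that may be technical. For RNA that spread was set mainly by loci of similar level. A small RNA p-value therefore does not show that the libraries agreed for that locus.

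The Ehmt2 gene encodes G9A and the Ehmt1 gene encodes GLP, and the proteins form a complex that writes H3K9me2, a mark of repressed chromatin. In the mouse embryo, Zscan4 genes and a set of other genes are switched on for a short time at the two-cell stage, when the embryo begins to transcribe its own genome, and they are switched on again in a rare state of cultured embryonic stem cells. Zscan4 proteins are zinc finger proteins with a role in telomere maintenance, Usp17-like genes encode deubiquitinating enzymes, Pramel7 encodes a PRAME family protein that serves as a substrate receptor of a cullin ubiquitin ligase, and Arg2 encodes mitochondrial arginase, which splits arginine into ornithine and urea.

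RNA libraries were scaled to totals of 1458868 to 2399680 reads, and values are given as reads and as reads per 1000000 of that total (RPM). Of 15 oocyte markers matched, 14 had more than 3 reads in a library of each group, and their summed level was 16886 to 20317 RPM over the 11 libraries. The summed level of 14 granulosa cell markers was 189.6 to 200.4 RPM in GKAO controls, 143 to 172 in G9a cKO, 138 to 173 in GKAQ controls and 130 to 147 in cDKO. Ehmt1 was low in both cDKO libraries, with 31 and 36 reads against 144 to 173 in their controls. Ehmt2 had few reads everywhere, and the library labelled G9a cKO replicate 2 had 11 reads, within the 9 to 13 of its controls. The main G9a cKO differences and calls are therefore also given without it.

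The promoter windows of the genes are shown because members that moved together include copies of a gene family. RefSeq (GRCm38.p6) gave windows of 250 bases before to 50 bases after the start for 4 of the 6 genes, with Usp17l5 listed there as Usp17lc. Zscan4e, annotated by RefSeq as a pseudogene, and Arg2 were not among them. The windows lie at chr7:11166099-11166398 (minus strand) for Zscan4d, chr7:11397665-11397964 (plus) for Zscan4f, chr7:103416446-103416745 (plus) for Usp17l5 and chr2:87492369-87492668 (minus) for Pramel7. Capitals mark matches to TATAAA, the core of the TATA box, and to TGAT and AATCA with any 2 bases between them, a motif chosen after the sequences had been seen.
Zscan4d: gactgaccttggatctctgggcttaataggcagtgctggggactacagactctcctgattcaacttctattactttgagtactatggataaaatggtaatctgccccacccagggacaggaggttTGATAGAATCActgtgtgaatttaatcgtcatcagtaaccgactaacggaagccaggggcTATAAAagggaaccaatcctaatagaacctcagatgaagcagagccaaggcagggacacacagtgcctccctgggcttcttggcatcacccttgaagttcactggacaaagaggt
Zscan4f: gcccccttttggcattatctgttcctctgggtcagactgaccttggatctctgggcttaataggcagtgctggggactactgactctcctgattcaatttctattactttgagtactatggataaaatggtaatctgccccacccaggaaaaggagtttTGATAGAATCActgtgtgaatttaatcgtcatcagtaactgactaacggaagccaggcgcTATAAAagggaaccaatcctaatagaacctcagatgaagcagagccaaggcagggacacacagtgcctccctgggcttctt
Usp17l5: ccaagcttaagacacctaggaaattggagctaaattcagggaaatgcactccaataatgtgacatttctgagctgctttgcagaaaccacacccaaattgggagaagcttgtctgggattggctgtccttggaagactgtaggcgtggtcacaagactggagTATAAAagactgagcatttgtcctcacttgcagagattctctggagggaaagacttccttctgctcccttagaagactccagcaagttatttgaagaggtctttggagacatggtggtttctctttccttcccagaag
Pramel7: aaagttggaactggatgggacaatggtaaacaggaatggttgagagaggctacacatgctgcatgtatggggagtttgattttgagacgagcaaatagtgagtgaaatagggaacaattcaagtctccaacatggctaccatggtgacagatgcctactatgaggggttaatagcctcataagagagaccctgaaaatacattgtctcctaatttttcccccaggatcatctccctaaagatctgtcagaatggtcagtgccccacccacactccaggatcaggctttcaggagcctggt

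The Zscan4d and Zscan4f windows were 97.4% identical over 266 aligned bases, and the windows of Zscan4f and of the further copy Zscan4c were 99.3% identical over 277 bases. The second motif was found in the same orientation, as TGATAGAATCA, in Zscan4b, Zscan4c, Zscan4d and Zscan4f, from -125 to -115 relative to the RefSeq start in Zscan4d and from -91 to -81 in Zscan4f. On both strands, it was present in 68 of 32851 promoter windows of this length (0.207%), these 4 included. TATAAA lay downstream of it, from -65 to -60 in Zscan4d and from -31 to -26 in Zscan4f, and it was also found in Usp17l5 from -88 to -83. Of all windows, 13.6% held TATAAA on either strand. The E-box CACGTG was present in 7.15% of windows and in none of these 4, and none of the 3 motifs overlapped another here. The RefSeq start lay at the first base of the table's locus for Zscan4f and Usp17l5, 266 bases inside it for Zscan4d and 6110 bases inside it for Pramel7, so the last window may not be the start of the measured transcript.

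Zscan4d was the gene of the group that was high in both mutants. Its locus (ENSMUSG00000090714, chr7:11161269-11166414, minus strand) had 5, 6 and 4 reads in GKAO controls, or 3.43, 3.14 and 2.34 RPM. It had 34, 61 and 41 reads in G9a cKO, or 14.2, 33.3 and 19.3 RPM. With prefix GKAQ it had 3, 3 and 10 reads in controls (1.89, 1.25 and 4.93 RPM) and stood at 128 and 103 in cDKO (72.9 and 61.1 RPM). Every mutant library lay above every control library, both cDKO libraries lay above all 3 G9a cKO libraries, and the highest G9a cKO value was that of the library labelled replicate 2. The mean was 22.3 ± 9.90 RPM (SD, n = 3) in G9a cKO against 2.97 ± 0.56, a ratio of 7.5, and 67.0 ± 8.36 RPM (n = 2) in cDKO against 2.69 ± 1.97, a ratio of 24.9. On the log2 scale the differences were 2.83 (SE 0.40) and 4.88 (SE 0.45), and without G9a cKO replicate 2 the first was 2.50.

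The other Zscan4 genes in the group had few reads. Zscan4f (ENSMUSG00000070828, chr7:11397915-11402318, plus strand) had 0, 2 and 0 reads in GKAO controls and 0, 4 and 0 in G9a cKO. It had 0 reads in each GKAQ control and 6 and 8 in cDKO, or 3.42 and 4.74 RPM. In cDKO the groups did not overlap and the mean of 4.08 RPM was at least 2.16-fold higher than the controls, taking 3 reads in the shallowest control library as the limit that 0 reads allow. In G9a cKO the groups overlapped, and the 4 reads all came from the library labelled replicate 2. Zscan4e (ENSMUSG00000095936, chr7:11306378-11310682, minus strand) had 4 reads in cDKO replicate 1 and 0 reads in the other 10 libraries, so for this gene a higher level in the mutants was not detectable at this depth.

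Usp17l5 was high in cDKO. Its locus (ENSMUSG00000058976, chr7:103416696-103419819, plus strand) had 0 reads in all 6 control libraries, 48 and 25 reads in cDKO (27.3 and 14.8 RPM) and 3, 4 and 1 reads in G9a cKO (1.25, 2.19 and 0.471 RPM). The cDKO mean of 21.1 ± 8.85 RPM was at least 11.2-fold higher than its controls, while the G9a cKO mean of 1.30 ± 0.858 RPM lay below the 2.06 RPM that 3 reads in the shallowest GKAO control are worth. Both cDKO libraries lay above all G9a cKO libraries. The G9a cKO log2 difference was 1.02, and 0.52 without the library labelled replicate 2.

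Pramel7 (ENSMUSG00000025839, chr2:87490978-87498528, minus strand) had 4 and 2 reads in cDKO, or 2.28 and 1.19 RPM, and 0 reads in the 3 G9a cKO and 6 control libraries. The cDKO libraries were thus the highest, but their mean of 1.73 RPM is below the limit of 1.89 RPM that 0 reads in these controls allow, and no fold is given. RefSeq places Pramel7 at chr2:87489088-87492418, so the locus holds only part of the gene and extends upstream of it. Its reads may therefore come from outside the gene.

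Arg2 differed from the others in being well expressed in every library. Its locus (ENSMUSG00000021125, chr12:79130661-79156301, plus strand) had 199, 247 and 258 RPM in GKAO controls, 230, 237 and 289 in G9a cKO, 202, 206 and 239 in GKAQ controls and 341 and 307 in cDKO. These values rest on 290 to 613 reads per library. In cDKO both libraries lay above all controls, at 324 ± 24.0 RPM (n = 2) against 216 ± 20.5 (n = 3), a ratio of 1.5 and a log2 difference of 0.59 (SE 0.11). In G9a cKO the groups overlapped, with means of 252 ± 32.1 and 235 ± 31.7 RPM and a log2 difference of 0.10 (SE 0.10), or 0.14 without the library labelled replicate 2. A locus on the other strand overlaps the last part of Arg2 and had 196 to 219 RPM in GKAQ controls and 278 and 258 RPM in cDKO. Both cDKO libraries lay above all controls there too, with a log2 difference of 0.35 (SE 0.12, limma adjusted p = 0.0512). In G9a cKO its log2 difference was 0.01 (SE 0.11). Whether counting used the strand is not given in the sources used here, so reads of these loci may have been counted for both.

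**Figure D1:**
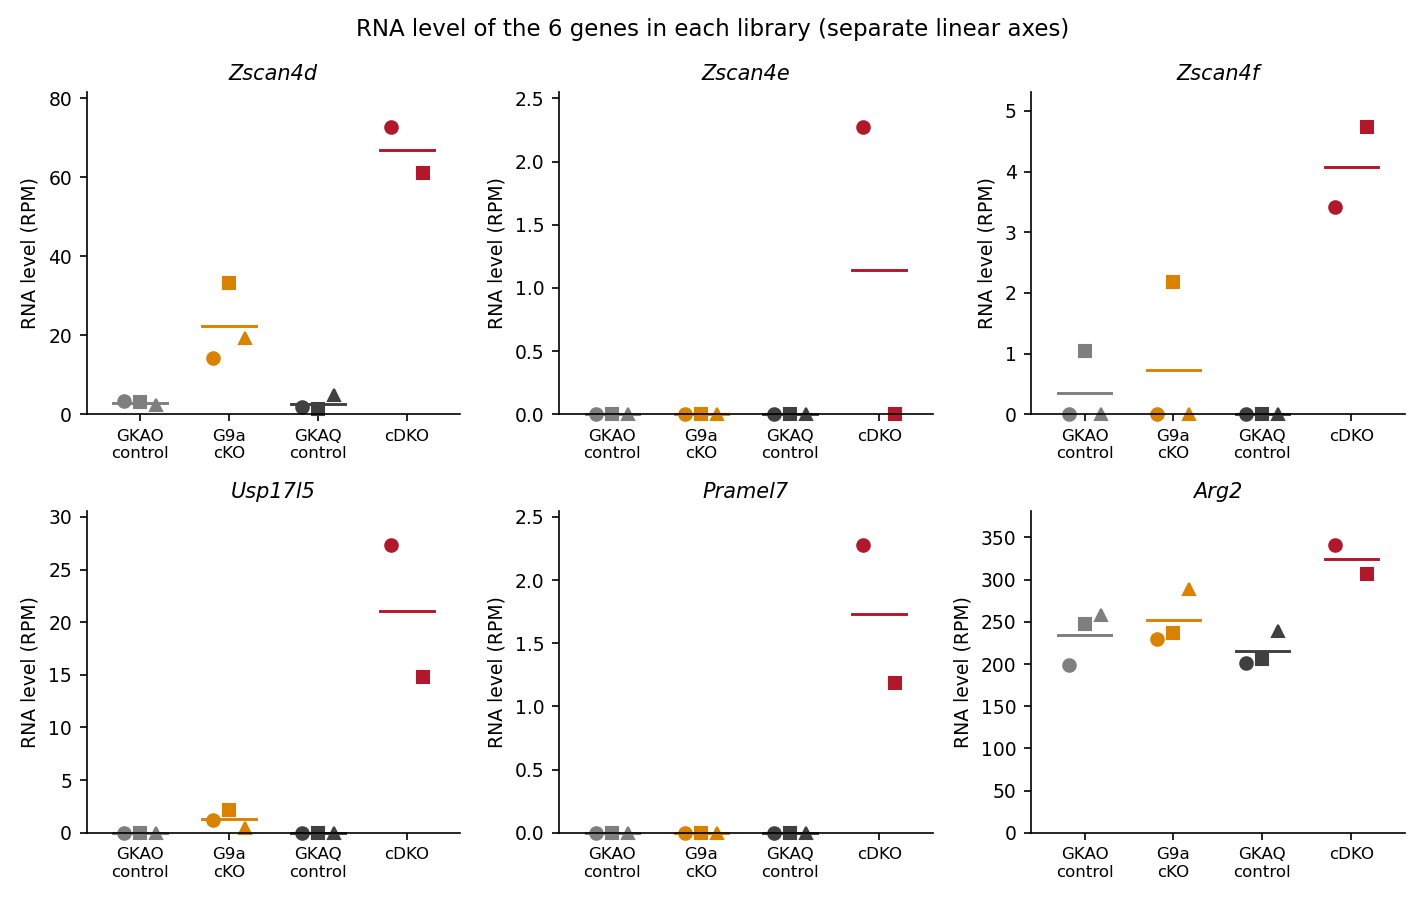
RNA level of the 6 genes in RPM, each panel with its own linear axis from 0. Points are libraries (circle, square and triangle for replicates 1, 2 and 3) and bars are group means. Zscan4d lies above its controls in all 5 mutant libraries, Usp17l5 reaches 27.3 and 14.8 RPM in cDKO, and Arg2 stays between 199 and 341 RPM in all 11 libraries.

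Counted over the 6 genes, every mutant library lay above every control library for 5 in cDKO, Zscan4e being the exception, where this held for 15.8% of all loci. In G9a cKO it held for 2, Zscan4d and Usp17l5, where it held for 6.57% of all loci. These counts describe how the genes were chosen, and nothing is read from them. For Zscan4e and Pramel7 the description as released genes rests on 4 and 6 reads in all. In a pool of oocytes, RNA from a few oocytes with much of it and from many oocytes with little cannot be told apart.

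The family as a whole was examined because near-identical copies may share reads. After the data had been seen, all table loci that overlap a RefSeq copy of Zscan4 or of the Usp17-like genes on either strand were added up in each library. The 7 Zscan4 loci cover 6 of 9 copies, and their sum was 18.2 to 25.7 RPM over the 6 control libraries, 75.1, 117 and 81.9 RPM in G9a cKO and 187 and 194 RPM in cDKO. The groups did not overlap, and the order was the one seen for Zscan4d. Without the loci of the 3 genes already described, the sum was 61.0, 81.4 and 62.6 RPM in G9a cKO and 108.8 and 128 RPM in cDKO, against 14.8 to 23.3 RPM in controls. Some of these loci overlap each other, so a read may be counted more than once.

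Most of that remainder came from a pair of loci within 100 kb of Zscan4d. A long locus on the plus strand (TCONS_00089337, chr7:10817640-11089592), 71.7 kb from Zscan4d, spans the RefSeq positions of Zscan4b, Zscan4c and the pseudogene Zscan4-ps1. It rose in both mutants, from 16 to 24 reads in GKAO controls to 83 to 91 in G9a cKO and from 19 to 41 reads in GKAQ controls to 118 and 145 in cDKO. The log2 differences were 1.95 (SE 0.26, limma adjusted p = 5.56e-11) and 2.52 (SE 0.29, adjusted p = 1.16e-15), as ratios of mean RPM 3.85 and 5.69. A locus on the opposite strand within it, at Zscan4-ps1 (CUFF.40519.1, chr7:11063384-11066431), rose as well, with log2 differences of 2.01 (SE 0.35, limma adjusted p = 3.95e-06) and 3.18 (SE 0.39, adjusted p = 2.06e-13). Both were called in G9a cKO without the library labelled replicate 2, with limma adjusted p = 8.96e-07 and 8.69e-04. Over all alternatives the adjusted p in G9a cKO went up to 0.0291 for the long locus and 0.0708 for the other, the latter with 2 RPM added before taking logs. The locus assigned to Zscan4b itself on its own strand had at most 1 read in any library.

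The Usp17-like copies gave a similar picture in cDKO. Their 4 loci, for 4 of 5 copies, summed to 0 RPM in the GKAO controls, 0 to 0.986 in the GKAQ controls, 5.84, 7.65 and 3.77 in G9a cKO, and the cDKO libraries reached 70.0 and 48.6. Dub3 (RefSeq Usp17le), a deubiquitinase gene, had 16 and 11 reads in cDKO against 0 to 1 in controls, and rose by a log2 difference of 3.98 (SE 0.81, limma adjusted p = 6.55e-05). Dub3 was not called in G9a cKO (limma adjusted p = 0.0852), where its 5, 5 and 6 reads stood beside controls all at 0 and made the mean at least 1.24-fold higher. A locus at Usp17lb on the strand opposite to that gene (TCONS_00091588) had 57 and 44 reads in cDKO against 0 to 1, a log2 difference of 5.95 (SE 0.80, limma adjusted p = 4.87e-11), and 6, 5 and 1 reads in G9a cKO.

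**Figure D2:**
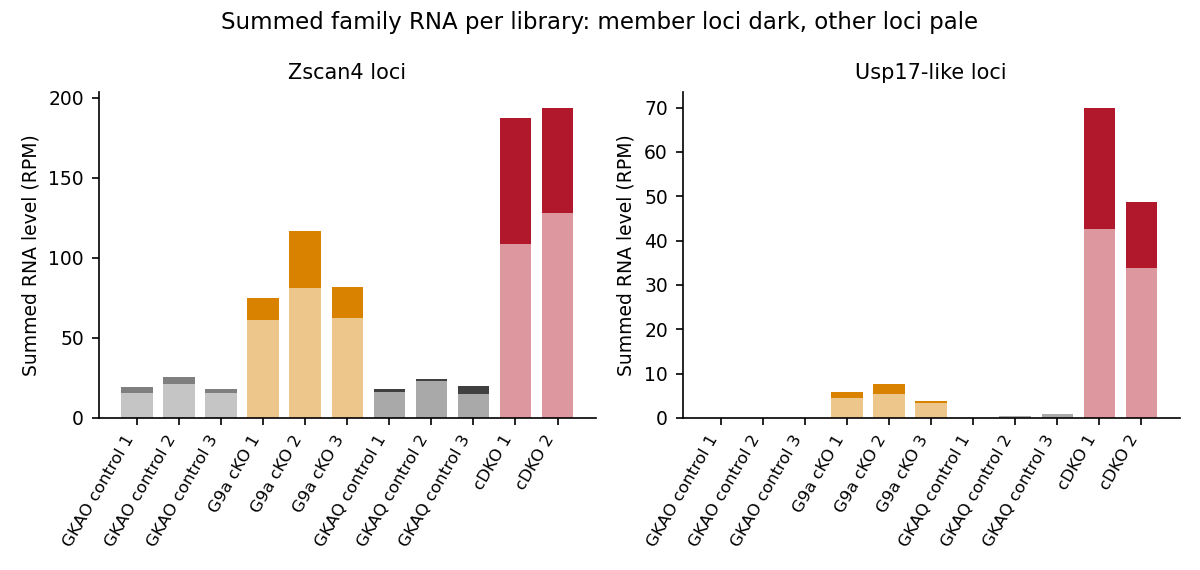
Summed RNA level in RPM of 7 Zscan4 loci (left) and 4 Usp17-like loci (right) in each of the 11 libraries, with the loci of the 6 described genes in dark and the other family loci in pale colour, on linear axes from 0. All 5 mutant libraries stand above all 6 controls in both panels, and the cDKO libraries stand highest.

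Other genes of the two-cell programme were taken from a list of 80 names, of which 36 were matched in the table. This list and the gene lists below were chosen with earlier results of these data known. Their shares of calls are therefore a description and not a separate test. The 36 include Dub3 and Dub2a, Usp17-like copies that may share reads with Usp17l5, and limma called both higher in cDKO. In cDKO, 12 of the 36 rose and 2 fell, where 4.32% of all loci were called higher and 2.02% lower. In G9a cKO, 3 rose and 2 fell, where 1.05% of all loci were called higher and 0.737% lower. The median log2 difference of the 36 was 0.28 in cDKO and 0.07 in G9a cKO, beside 0.20 and -0.31 over all loci. Loci near 0 weigh on these medians, as 0 reads stand at 0.9 of a read in libraries of unequal depth. Pramel4, with 0 reads in every library, had 0.20 in cDKO and -0.32 in G9a cKO. In cDKO and G9a cKO, list genes with more than 3 reads in a library compared had medians of 1.17 and 0.24. All loci above that limit had 0.13 and 0.05. In cDKO 9 and in G9a cKO 10 of the 36 had at most 3 reads in every library compared. So did 20580 and 20739 of the 38540 loci, so the shares over all loci are taken over many more loci near 0 than the list holds. Among the 15 oocyte markers, which are well expressed, 5 rose and 3 fell in cDKO, a higher share of 33.3% that equals that of the two-cell list, and 2 rose and 1 fell in G9a cKO. Without the library labelled G9a cKO replicate 2, 2 two-cell genes of the list rose and 1 fell in G9a cKO. With each library centred on its well-expressed loci, all log2 differences in cDKO fell by 0.09 and 53.1% of all called loci were higher, in place of 68.1%, and 11 of the 36 rose.

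Pramef17, a PRAME family gene like Pramel7, rose in both mutants, from 5 to 12 reads in GKAO controls to 29 to 53 in G9a cKO (log2 difference 2.02, SE 0.36, limma adjusted p = 5.70e-06) and from 9 to 19 reads in GKAQ controls to 57 and 70 in cDKO (2.48, SE 0.40, adjusted p = 8.85e-08). The G9a cKO call of Pramef17 held without the library labelled replicate 2 (limma adjusted p = 0.00107) and was lost in 3 of 15 alternatives, with 0.156 the highest adjusted p. Gm13109, listed by RefSeq as Pramef25, had 3 and 11 reads in cDKO against 0 to 1 and was called there (limma adjusted p = 0.0042), though not without cDKO replicate 1 (adjusted p = 0.183, the highest over the alternatives). The other PRAME family genes matched, Pramef8, Pramef12, Gm13125, Pramel1, Pramel4 and Pramel5, were not called in either mutant, and the last 2 had 0 reads in every library.

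Lmx1a, a LIM homeobox transcription factor gene, also rose in both mutants, with 26 to 41 reads in G9a cKO against 3 to 10 (log2 difference 2.17, SE 0.43, limma adjusted p = 1.59e-04) and 35 and 45 in cDKO against 2 to 9 (3.12, SE 0.49, adjusted p = 2.77e-08). The G9a cKO call of Lmx1a held without the library labelled replicate 2 (limma adjusted p = 0.00247) and was lost in 3 of 15 alternatives (highest 0.219), and its cDKO call was lost in 1 of 13 (0.0502). B020004J07Rik had 19 and 26 reads in cDKO against 0 to 1 (log2 difference 4.78, limma adjusted p = 5.30e-07), and Ddit4l, which encodes an inhibitor of mTOR signalling, had 8 and 26 reads against 0 to 1 (4.15, adjusted p = 2.04e-05). The call of Ddit4l was lost in 1 of 13 alternatives (limma adjusted p = 0.0686) and that of B020004J07Rik in 0 of 13 (highest 0.0106). Chit1, a chitinase gene, Cml2 and Tmem92 rose in cDKO by log2 differences of 2.66, 1.70 and 1.21 (limma adjusted p = 0.00172, 3.75e-06 and 0.0155). Over the alternatives these p-values reached 0.0866, 0.0404 and 0.238. The call was lost without cDKO replicate 1 for Chit1 (adjusted p = 0.0866), and for Tmem92 without that library (0.238), GKAQ control replicate 2 (0.0825) or GKAQ control replicate 3 (0.1). AA792892 rose in cDKO by 1.29 (limma adjusted p = 8.10e-12) and in G9a cKO by 0.51 (0.0456), and the latter call was lost on leaving out any G9a cKO library or GKAO control replicates 2 or 3 (limma adjusted p from 0.0879 to 0.301, and from 0.00118 to 0.452 over all alternatives).

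The calls of Dub2a (RefSeq Usp17ld) and Gm8300 in cDKO rest on 2 and 2 reads and on 0 and 6 reads, against 0 in each control, and are not read further. Of the genes that fell, named after their values were seen, E330034G19Rik fell by 0.32 in G9a cKO and by 0.41 in cDKO on the log2 scale (limma adjusted p = 1.42e-08 and 1.16e-11), AU015836 fell by 0.31 in cDKO (0.0057) and Obox3, an oocyte-specific homeobox gene, fell by 0.34 in G9a cKO (0.0104). The E330034G19Rik call was lost in 4 of 15 alternatives in G9a cKO and 4 of 13 in cDKO, with highest limma adjusted p of 0.333 and 0.874, and it held in G9a cKO without the library labelled replicate 2 (2.70e-04). The AU015836 call was lost without cDKO replicate 1 or GKAQ control replicate 1 (limma adjusted p = 0.242 and 0.0732). The Obox3 call was lost without G9a cKO replicate 1, the library labelled replicate 2 or GKAO control replicate 3 (limma adjusted p = 0.274, 0.128 and 0.34). Over all alternatives the highest adjusted p was 0.384 for AU015836 and 0.709 for Obox3.

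**Figure D3:**
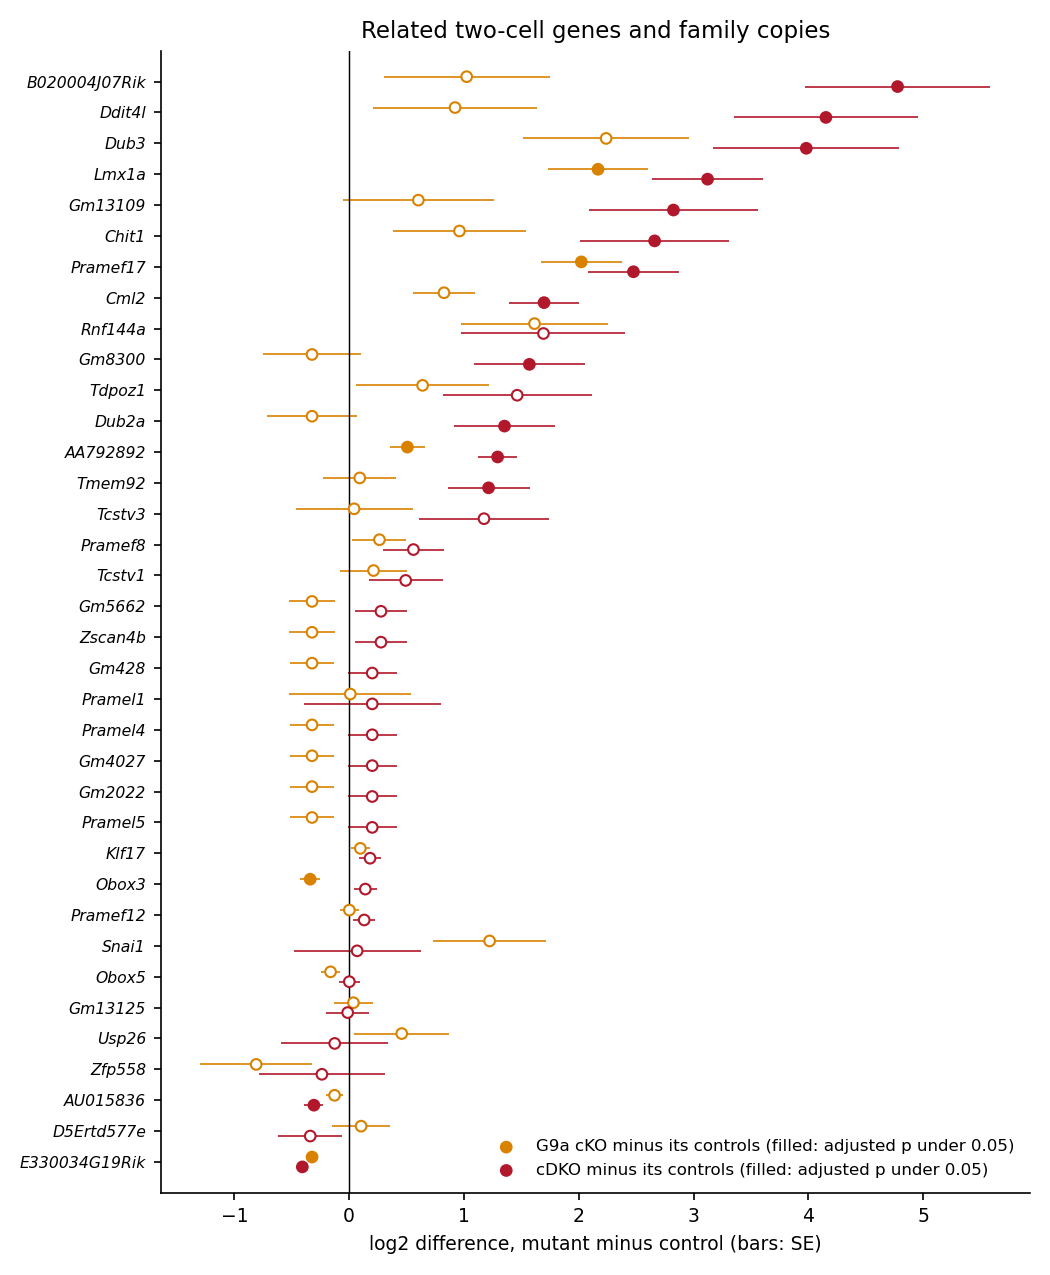
Log2 difference between each mutant and its controls (horizontal axis, bars are standard errors) for 36 related two-cell genes, sorted by the cDKO value. Filled points passed an adjusted p of 0.05 in limma. The 12 filled cDKO points on the right include 3 genes that are also filled for G9a cKO, namely Lmx1a, Pramef17 and AA792892.

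Genes known to act on the two-cell programme were taken from a second list of 28 names, of which 23 were matched. In G9a cKO limma called 0 of the 23, with 6 at an unadjusted p under 0.05, and 0 were called with any single library left out. In cDKO, 2 rose and 3 fell. Over all loci, 1.05% were called higher and 0.737% lower in G9a cKO, and 4.32% and 2.02% in cDKO. In both comparisons 0 of the 23 had at most 3 reads in every library compared. Of the 38540 loci, 20739 did in G9a cKO and 20580 in cDKO, so the shares over all loci are not a like comparison. Dnmt1, the maintenance DNA methyltransferase, fell from 9000.0 to 6019 RPM in the mean (log2 difference -0.58, SE 0.03, limma adjusted p = 3.57e-86), and Chaf1a, a subunit of the chromatin assembly factor that represses these genes in stem cells, fell from 971 to 630.2 RPM (-0.63, SE 0.07, adjusted p = 5.00e-17). Each of these calls was lost in 1 of 13 alternatives, without trended and robust moderation (limma adjusted p = 0.0604 and 0.0877). Mga, a partner of MAX in a repressor complex with E2F6, fell by 0.66 on the log2 scale (limma adjusted p = 0.00461), and this call was lost without cDKO replicate 1 or GKAQ control replicate 3 (0.11 and 0.102, with 0.217 the highest over the alternatives). E2f6 and Rif1 rose by 2.02 and 0.28 (limma adjusted p = 0.0165 and 0.0348). Leaving out either cDKO library or GKAQ control replicate 1 ended both calls, with limma adjusted p of 0.117 to 0.139 for E2f6 and 0.0892 to 0.285 for Rif1. Over all alternatives these reached 0.401 and 0.931, and with the controls of both prefixes pooled the Rif1 difference was -0.03.

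Around Arg2, 18 of 23 listed genes of arginine and polyamine metabolism were matched, and limma called 1 in each mutant, or 5.56%, where 1.05% of all loci were called higher in G9a cKO and 4.32% in cDKO. In cDKO that share is near the one over all loci. In G9a cKO 4 and in cDKO 6 of the 18 had at most 3 reads in every library compared, beside 20739 and 20580 of the 38540 loci. The gene was Odc1, ornithine decarboxylase, which uses the ornithine that arginase makes. It had 241 to 382 reads in G9a cKO against 129 to 230, and 259 and 265 in cDKO against 174 to 257. The log2 differences were 0.44 (SE 0.13, limma adjusted p = 0.0424) and 0.43 (SE 0.14, adjusted p = 0.045). The call in cDKO was lost on leaving out any 1 of its 5 libraries (limma adjusted p from 0.0549 to 0.257), and that in G9a cKO without G9a cKO replicates 1 or 3 or GKAO control replicates 1 or 2 (0.0823 to 0.519). Over all alternatives the highest adjusted p was 0.373 in cDKO and 0.519 in G9a cKO. Around Pramel7, 7 of 9 listed partners of its ubiquitin ligase and signalling pathway were matched. Of the 7, limma called 1 higher in G9a cKO (14.3%) and 2 in cDKO (28.6%), where 1.05% and 4.32% of all loci were called higher. In both comparisons 0 of the 7 had at most 3 reads in every library compared, so the shares over all loci are not a like comparison. Stat3, a transcription factor downstream of LIF in stem cells, rose in both mutants, from 205 to 286 RPM in G9a cKO (log2 difference 0.49, SE 0.10, limma adjusted p = 3.16e-04) and from 196 to 333 RPM in cDKO (0.77, SE 0.11, adjusted p = 2.43e-09). The G9a cKO call of Stat3 held without the library labelled replicate 2 (limma adjusted p = 0.00456) and was lost in 3 of 15 alternatives, with 0.249 the highest. Tceb1, which encodes elongin C, an adaptor of such ligases, rose in cDKO by 0.56 (limma adjusted p = 0.00116), a call lost without cDKO replicate 1 (0.0581, with 0.331 the highest over the alternatives).

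Of 28 loci within 100 kb of the 6 genes, 4 rose in cDKO and 2 in G9a cKO, and limma called none lower, where 4.32% and 1.05% of all loci were called higher. In cDKO 17 of the 28, and in G9a cKO 18, had at most 3 reads in every library compared. The 2 shared loci were the Zscan4 neighbours described above. They lie over Zscan4 copies and may share reads with Zscan4d, so their calls may not be separate from its rise. The other 2 lie beside Arg2: Rdh11 and Rdh12, retinol dehydrogenase genes, rose in cDKO by log2 differences of 0.39 and 0.85 (limma adjusted p = 0.0291 and 0.0308). The Rdh11 call was lost without cDKO replicate 1 or GKAQ control replicates 1 or 2 (limma adjusted p = 0.694, 0.137 and 0.0514), and the Rdh12 call without either cDKO library or GKAQ control replicates 1 or 3 (0.0932 to 0.227). Over all alternatives the highest adjusted p was 0.874 for Rdh11 (TCONS_00025077) and 0.4 for Rdh12 (TCONS_00022668). Around the other 4 genes no neighbour was called in either mutant, with 1 at an unadjusted p under 0.05 in each.

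Granulosa and endothelial marker genes were looked at beside these results. In cDKO, Fshr and Inha rose by log2 differences of 2.15 and 2.26 (limma adjusted p = 0.03 and 0.00472), with 9 to 17 reads against 1 to 10, and Kdr rose by 1.71 (0.00125). None of the 14 granulosa markers was called in G9a cKO, where 3 had an unadjusted p under 0.05. The summed granulosa level was no higher in cDKO, as given above. Its largest parts were Nr5a2 and Cyp19a1, at 70.1 and 29.5 RPM in cDKO against 79.5 and 47.3 RPM in its controls. A rise of less abundant markers can be hidden in that sum. The summed level of 9 endothelial and stromal markers was 136 to 138 RPM in cDKO against 106 to 144 in its controls. Its largest part was Pecam1, at 83.2 against 92.3 RPM. Of 9 blood and immune markers listed, 3 were matched. Hba-a1, a red blood cell marker, had 0 reads in every library, Csf1r had 0 to 1 and Cd68 had 0 to 7, with 1 to 3 in cDKO. In the cDKO libraries 1 of the 14 granulosa markers and 4 of the 9 endothelial and stromal markers were at 0. The part of other cell types in the results was not tested.

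Loci whose pattern over the 11 libraries was most like that of each gene were found by Pearson correlation of log2 values among 8179 named loci with a mean of at least 5 RPM. For Zscan4d these were Fat3 (r = 0.96), Myot (0.957) and CT485612.2 (0.951). Myot, which encodes a muscle actin-binding protein, had means of 11.05 and 7.95 RPM in the controls, 29.9 in G9a cKO and 39.8 in cDKO. For Usp17l5 they were Utp14a (0.961), Rhbdd1 (0.958) and Crmp1 (0.955), and Crmp1 had means of 4.38 to 6.52 RPM in the other groups and 45.3 in cDKO. For Arg2 they were Zfp82 (0.94), Appbp2 (0.917) and Brdt (0.914). For Zscan4e, Zscan4f and Pramel7 the pattern rests on a few reads, and the leading loci were Gm20521, Mrpl18 and Fbxo28 (r from 0.898 to 0.936). These values share the 4 groups and the depths of the same libraries and are a description.

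H3K9me2 was examined because it was not used to choose the genes. The control libraries held 7048784 and 19128881 reads and the mutant libraries 1109191 to 1881848, so a 10 kb window had a median of 28 and 77 reads in controls and 4 to 7 in mutants. At this depth limma called 0 of the 10 windows that overlap the 6 loci in either mutant, with 2 at an unadjusted p under 0.05 in each, where 1.85% of all windows were called in G9a cKO and 0% in cDKO. Comparing cDKO with G9a cKO, 0 of the 10 were called, with 1 at an unadjusted p under 0.05, where 0% of all windows were called. Values are scaled to each library's own reads, so they show how the reads of the H3K9me2 libraries lie along the genome. A change in the total amount of H3K9me2 cannot be seen. No input or IgG was used, so background reads are not set apart from the mark.

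The windows over the loci differed in their level in control oocytes. The window of Pramel7 had 37 and 89 reads in controls (5.25 and 4.65 RPM), against 2 and 3 (1.08 and 2.70 RPM) for G9a cKO, and cDKO had 1 and 5 (0.58 and 2.66 RPM), so all 4 mutant libraries lay below both controls. The window of Zscan4d had 23 and 61 reads in controls (3.26 and 3.19 RPM), against 3 and 3 (1.62 and 2.70 RPM) for G9a cKO, and cDKO had 5 and 6 (2.90 and 3.19 RPM), with cDKO next to the controls. The window of Usp17l5 had 4.68 and 3.66 RPM in controls, against 4.31 and 1.80 for G9a cKO, and cDKO had 1.74 and 3.19, and the G9a cKO libraries overlapped the controls.

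The windows over Zscan4e and Zscan4f held little H3K9me2 signal to begin with. In controls they had 0.142 to 2.13 RPM, at or below percentile 3.85 of windows with a read, beside library medians of 3.97 and 4.03 RPM. The windows of Zscan4f had 0 to 1 read in each mutant library. Whether reads from near-identical copies were kept when aligning is not given in the sources used here, and its part in these low values was not tested. Arg2 lay the other way, as its 3 windows averaged 4.02 and 3.50 RPM in controls, against 5.74 and 6.91 for G9a cKO, and cDKO had 5.22 and 5.14, so the mutants were above the controls.

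**Figure D4:**
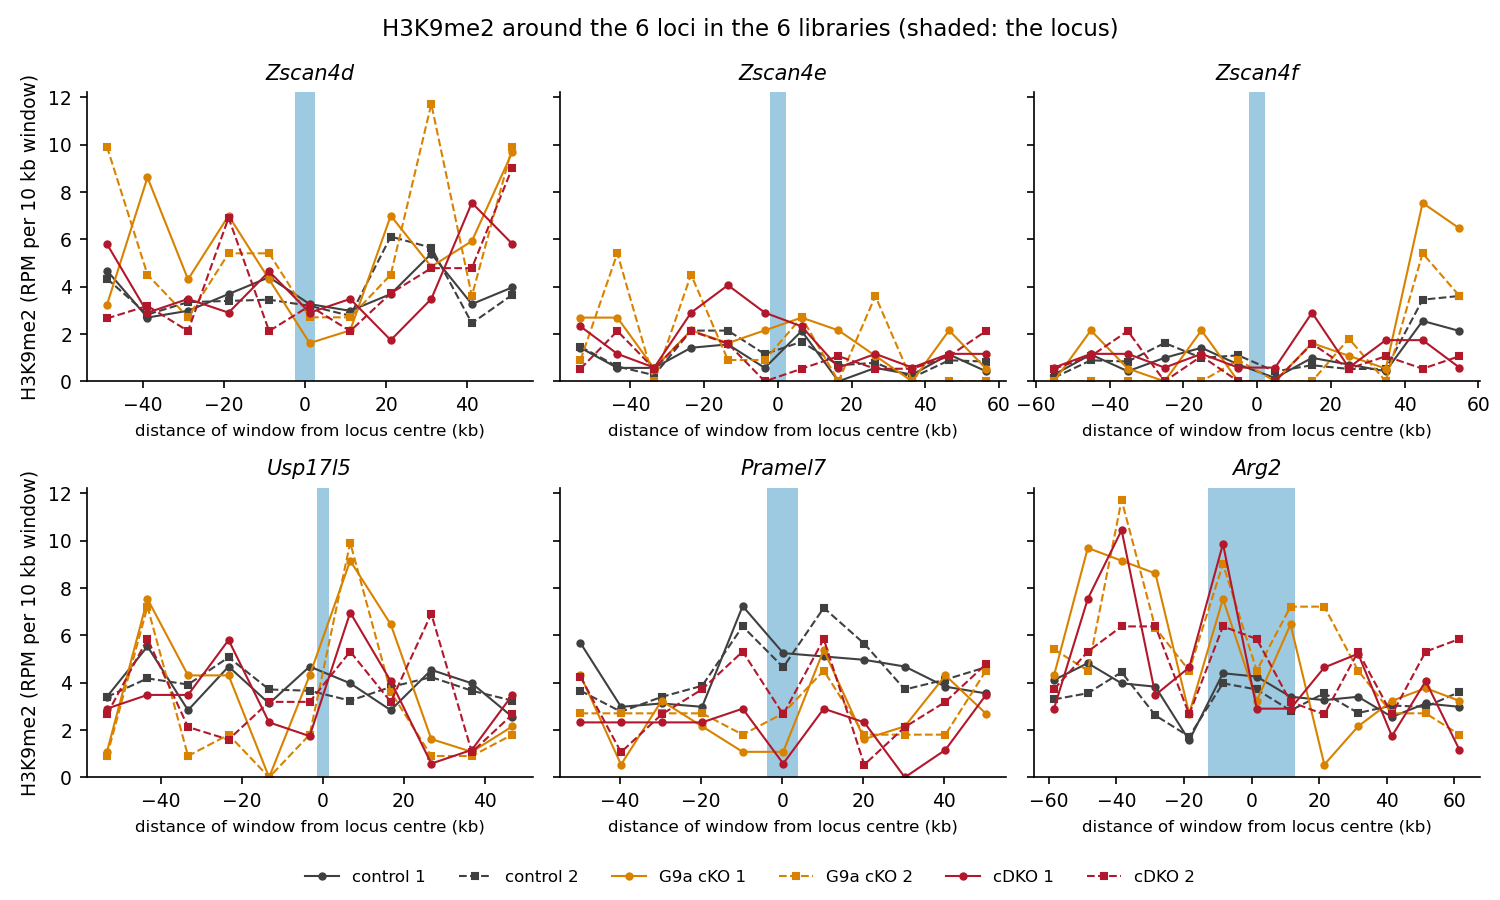
H3K9me2 in RPM per 10 kb window (vertical axis, from 0) against the distance of the window from the centre of each locus in kb, for the 6 H3K9me2 libraries. The shaded band is the locus. The windows around Zscan4e and Zscan4f lie mostly below 3 RPM in all libraries, and the Pramel7 window is lower in the 4 mutant libraries than in the controls.

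Among the 67 windows within 50 kb of the loci, 0 were called in either mutant by limma, with 14 at an unadjusted p under 0.05 in G9a cKO and 13 in cDKO. Their log2 differences from control were positive in 40 and negative in 27 in G9a cKO, and positive in 30 and negative in 37 in cDKO, with medians of 0.16 and -0.09. These signs are not read further, as 0 reads stand at 0.9 of a read, which is worth more RPM in the shallower mutant libraries. A window beside Zscan4e and Zscan4f had 2 and 3 reads in controls and 0 in both G9a cKO libraries. Its log2 difference was still 1.57, and it is among the 14 windows above. Comparing cDKO with G9a cKO directly, 0 were called and 9 had an unadjusted p under 0.05. Beside Zscan4d, the level over 11 windows was 3.73 and 3.74 RPM in controls, against 5.34 and 5.74 for G9a cKO, and cDKO had 4.06 and 4.06. Beside Pramel7 it was 4.49 and 4.55 RPM in controls, against 2.59 and 2.70 for G9a cKO, and cDKO had 2.06 and 3.28.

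Reads were also summed to bins of 100 kb, a step chosen after the data had been seen, and the 6 loci fall in 6 bins. In G9a cKO, 3 of the 6 were called where 29.7% of all bins were. The bin of Arg2 rose by a log2 difference of 0.71 (SE 0.15, limma adjusted p = 0.00774), that of Zscan4d rose by 0.45 (SE 0.15, adjusted p = 0.0423) and that of Pramel7 fell by 0.55 (SE 0.17, adjusted p = 0.0316). In cDKO, limma called 0 of the 6, with 2 at an unadjusted p under 0.05, where 6.01% of all bins were called. The cDKO log2 differences were 0.57 (SE 0.15, limma adjusted p = 0.0526) for Arg2, -0.38 (SE 0.17, 0.167) for Pramel7 and -0.16 (SE 0.15, 0.492) for Zscan4d. For cDKO against G9a cKO, 0 of the 6 were called, with 2 at an unadjusted p under 0.05, where 0.153% of all bins were.

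The bin calls changed when a control library was left out. Without control replicate 1 the Arg2 bin alone was still called in G9a cKO (limma adjusted p = 0.041), and without control replicate 2 none was (0.0749 for Arg2). In these fits the share of all bins called also fell, from 29.7% to 7.20% and 6.87%. The Zscan4d call was also lost without G9a cKO replicate 2 (limma adjusted p = 0.0931), and the Pramel7 call without G9a cKO replicate 1 (0.0591). Calls were also gained, as the Usp17l5 bin fell by 0.67 without G9a cKO replicate 1 (limma adjusted p = 0.0188) and the bin with the rest of Zscan4f rose by 0.70 without replicate 2 (0.0335). In the bin of Usp17l5, the levels were 35.5 and 36.0 RPM in controls, against 36.1 and 22.5 for G9a cKO, and cDKO had 29.0 and 32.4. In the bin shared by Zscan4e and Zscan4f they were 8.23 and 9.88, 12.9 and 8.11, and 12.2 and 6.91 RPM in the same order, and no group stood apart. The next bin, which holds the rest of Zscan4f, had 22.1 and 22.3 RPM in controls, 36.1 and 28.8 in G9a cKO (limma adjusted p = 0.0687) and 22.1 and 18.1 in the cDKO libraries.

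**Figure D5:**
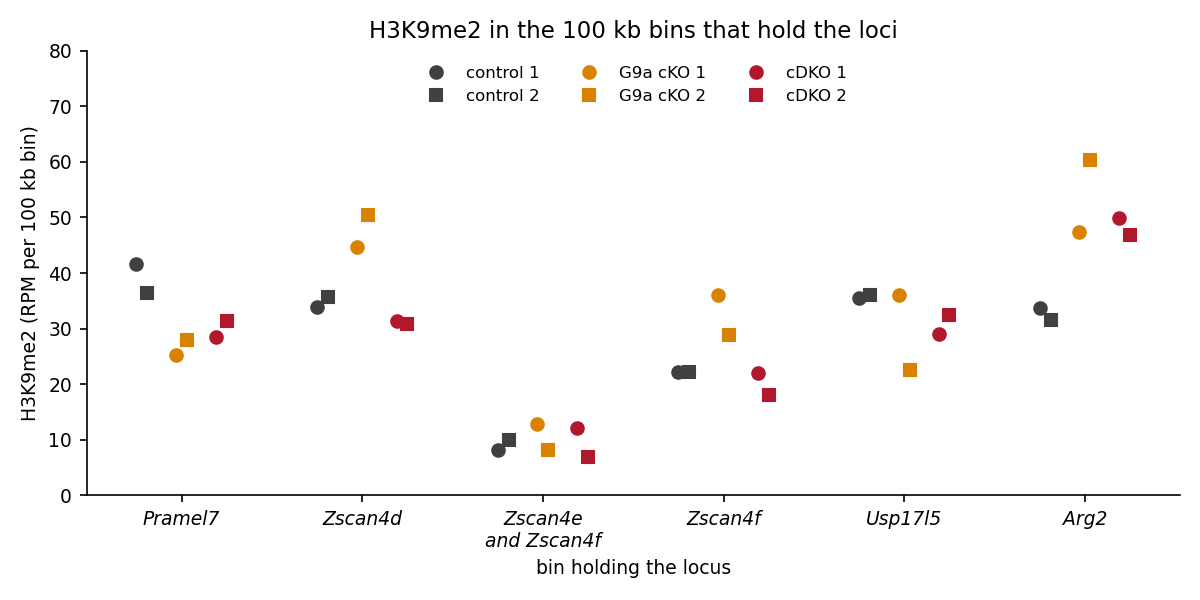
H3K9me2 in RPM per 100 kb bin (vertical axis, from 0) for the 6 bins that hold the loci, with circles for replicate 1 and squares for replicate 2 of each genotype. The G9a cKO points of the Arg2 and Zscan4d bins lie above the controls, and those of the Pramel7 bin lie below them.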

How the data were processed

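Per the submitters' processing notes, Trim Galore, HISAT2 2.1.0, Bowtie2, Bismark 0.19.0 and the build GRCm38 were used in the series, with no role given for each. The authors deposited log2 values for 38540 transcript loci (RNA) and 272158 windows of 10 kb (H3K9me2). From the values they are log2 reads per 1000000 (RPM) with 0 reads set to 0.9 of a read, since whole reads were recovered within 0.02 of a read for all values. A blank last line was left out, and 4 H3K9me2 columns of per-sample values that match no sample were not used. Input, IgG and bisulphite samples were not analysed here.

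The members and gene lists were chosen with earlier results of these data known. Differences of group means were fitted with limma 3.58.1 (R 4.3.3, with version 1.17.8 of the package data.table) on the deposited log2 values over all 11 RNA or all 6 H3K9me2 libraries, with trended and robust moderation. Benjamini-Hochberg adjustment ran over all loci or over 255057 windows with a read, and a call is an adjusted p under 0.05. The design allowed for counts, but the values are log2, so the log2 test was used. Fold changes of low loci depend on the 0.9 of a read, and a control group at 0 reads was bounded at 3 reads in its shallowest library. That bound covers counting error only. From each list, up to 8 called genes with the largest log2 difference were named, besides family copies, and for likeness 3 loci per gene. The fits were also run on simulated data, with the outcome not given here. Loci near 0 were not changed in it, so it does not cover genes such as Zscan4e, Zscan4f and Pramel7. Tables, sequences and figures used Python 3.11.15, pandas 2.3.3, numpy 2.4.6, Biopython 1.88 and matplotlib 3.10.9. Alternatives were centring, other added constants, filters, pooled controls, precision weights, a replicate block and leaving out each library. The 100 kb bins with their leave-one-out fits, and the family sums, were added after seeing the data.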

Additional observations from a re-analysis of the deposited data

Results flagged for a closer look

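For 5 genes of the lists, the cDKO effect and the G9a cKO effect differed in a test of the difference itself (limma, adjusted over all loci). The cDKO effect was larger by 3.75 on the log2 scale for B020004J07Rik (SE 1.08, adjusted p = 0.0498) and by 0.79 for AA792892 (SE 0.23, adjusted p = 0.0495). For Obox3 it was higher by 0.48 (SE 0.13, adjusted p = 0.0308), as the gene fell in G9a cKO. For Dnmt1 and Chaf1a the difference was -0.58 (SE 0.04, adjusted p = 6.14e-47) and -0.59 (SE 0.09, adjusted p = 3.25e-07), with the fall in cDKO. The cDKO and G9a cKO libraries carry different title prefixes, so genotype and whatever the prefix stands for cannot be told apart beyond the subtraction of each prefix's own controls.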

How the results depend on the processing

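Log2 differences of Zscan4d were 2.22 to 3.11 in G9a cKO and 3.95 to 5.44 in cDKO over the alternatives, those of Usp17l5 in cDKO 3.47 to 6.33 and those of Arg2 in cDKO 0.50 to 0.67. Those of Zscan4f in G9a cKO went from -0.81 to 0.46. The cause of the moves in counts given here was not tested.

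Related two-cell genes higher in G9a cKO numbered 3. The count was 6 with the controls of both prefixes pooled, 1 with 0.5 RPM added, 0 with 2 RPM added, 1 without trend and robust moderation, 5 with precision weights and 2 to 3 with a library left out. The 2 genes lower there were 0 with 0.5 or 2 RPM added or without moderation, 1 with loci of at least 1 RPM, and 1 to 2 with a library left out. In cDKO the 12 higher genes were 7 with 0.5 RPM added and 9 to 13 with a library left out, and the 2 lower genes were 0 with pooled controls, with 0.5 or 2 RPM added and without moderation, and 1 to 2 with a library left out.

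Regulators called were 2 instead of 0 in G9a cKO with pooled controls. In cDKO the 5 became 2 with 0.5 or 2 RPM added, 0 without moderation and 2 to 5 with a library left out. Rif1 reversed to -0.026 with pooled controls (limma adjusted p = 0.931). The 1 arginine gene became 0 in both mutants with centring, with 0.5 or 2 RPM added and with the groups of the contrast alone, in G9a cKO also without moderation, and with a library left out it was 0 to 1 in G9a cKO and 0 in cDKO. Pramel7 partners called in G9a cKO were 2 instead of 1 with pooled controls and 0 with 0.5 or 2 RPM added or without moderation. In cDKO they were 1 instead of 2 with each of these 4, and 1 to 3 with a library left out. Neighbours called in G9a cKO were 1 instead of 2 with 0.5 or 2 RPM added. In cDKO they were 2 instead of 4 with centring, 0.5 or 2 RPM added or no moderation, and 2 to 4 with a library left out.

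H3K9me2 windows over the loci called in G9a cKO were 0 to 1 with a library left out. Those within 50 kb were 6 instead of 0 with all windows kept, 4 with centring and 0 to 2 with a library left out. Bins called were 0 to 3 in G9a cKO, 0 to 1 in cDKO and 0 to 1 for cDKO against G9a cKO.

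With the replicate block by title number, the 1 arginine gene called in G9a cKO became 0, Odc1 having a log2 difference of 0.39 (limma adjusted p = 0.144), and the other 5 counts of that comparison stayed at 3, 2, 0, 1 and 2. The labels do not say what the number stands for. For the cDKO and H3K9me2 comparisons, no paired analysis was possible because the cDKO titles share 1 number with their controls and no label pairs the H3K9me2 libraries. Depth limits Zscan4e, Zscan4f and Pramel7, which had at most 8 reads in any library, and mutant H3K9me2 windows, with a median of 4 to 7 reads.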
